A study of Mus musculus with 24 samples.

Results

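LPS-only peaks were stretches of chromatin that were called as peaks with LPS but in no unstimulated library, and nearly all became more accessible with LPS. A consensus peak on chromosomes 1 to 19 was counted as LPS-only when the authors' own peak lists marked it in at least 10 of the 12 LPS libraries and in none of the 12 unstimulated libraries. There were 6017 such peaks among 179185 consensus peaks on these chromosomes, out of 184158 in the whole series. They were measured by ATAC-seq, which reads out where a transposase can reach the DNA, in bone marrow-derived macrophages (BMDMs) of the mouse. There were 4 groups of 6 libraries, from WT and from AhR-KO cells, each with and without LPS. The aryl hydrocarbon receptor (AhR) is a transcription factor switched on by small molecules, and the AhR-KO animals carried the germline allele B6.129-Ahr tm1Bra/J, so the receptor was missing from all cells. The WT animals were C57/B6/J mice. Marrow of either genotype was cultured with 10 ng/ml GM-CSF and 2 ng/ml TGF-β in 10% serum, which the study used to obtain macrophages like those of the lung alveoli, so these 2 factors were shared by all groups. LPS, a component of bacterial cell walls, was given at 97 EU/ml on day 6 for 24 h, followed by the calcium ionophore A23187 at 5 µM for 10 min. The labels attach the ionophore to all libraries, and the LPS sentence too, so the treatment of a library was taken from its own treatment label. Per the study's methods, age- and sex-matched mice were used, and the animals of a group came from 1 experiment.

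As background, the enhancers that make a macrophage a macrophage are held open by lineage factors, chiefly PU.1 with C/EBP and RUNX partners. LPS is sensed by the receptor TLR4, and the signal ends in NF-kB, in AP-1 dimers of JUN and FOS proteins and, through secreted interferon, in STAT and IRF factors. Many of these factors bind enhancers that are already open, but some sites open only after stimulation and have been called latent enhancers. AhR works with its partner ARNT at short sites with a GCGTG core, and it is also known to interact with NF-kB proteins.

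The letters under the LPS-only peaks are shown for 10 peaks on which the results below turn, as the 200 bases at the peak centre on the plus strand of GRCm38. Capitals mark matches, on either strand, to the AP-1 site TGANTCA and to the consensus site of NF-kB, which is 10 letters long. Among the peaks with the greatest rise, the 200 bases shown for Runx2 held 2 AP-1 matches. Those for Galnt11 held 2 NF-kB matches that overlap on opposite strands, and those for Hif1a held 1 AP-1 match. The 200 bases shown for Helt and Ms4a6d held neither. In the wider window used for the motif shares below, the Runx2 peak also held 1 NF-kB match. In that window the Hif1a peak held 2 AP-1 matches and the Ms4a6d peak held 1.
Runx2, chr17:44476034-44476233: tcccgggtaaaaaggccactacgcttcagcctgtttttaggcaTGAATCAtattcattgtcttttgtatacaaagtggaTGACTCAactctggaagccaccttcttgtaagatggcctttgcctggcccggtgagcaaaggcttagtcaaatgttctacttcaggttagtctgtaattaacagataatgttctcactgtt
Galnt11, chr5:25250320-25250519: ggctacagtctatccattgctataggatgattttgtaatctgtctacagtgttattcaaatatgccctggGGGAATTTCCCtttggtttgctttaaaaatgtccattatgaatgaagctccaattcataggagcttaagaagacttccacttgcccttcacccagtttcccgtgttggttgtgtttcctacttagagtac
Hif1a, chr12:73838489-73838688: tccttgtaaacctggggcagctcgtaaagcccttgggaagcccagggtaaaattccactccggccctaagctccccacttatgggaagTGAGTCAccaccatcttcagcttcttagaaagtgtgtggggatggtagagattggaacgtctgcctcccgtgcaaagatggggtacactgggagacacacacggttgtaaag
Helt, chr8:46365299-46365498: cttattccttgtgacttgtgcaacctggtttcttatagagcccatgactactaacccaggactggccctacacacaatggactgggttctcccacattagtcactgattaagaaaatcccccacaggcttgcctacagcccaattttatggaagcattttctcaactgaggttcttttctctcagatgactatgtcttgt
Ms4a6d, chr19:11592016-11592215: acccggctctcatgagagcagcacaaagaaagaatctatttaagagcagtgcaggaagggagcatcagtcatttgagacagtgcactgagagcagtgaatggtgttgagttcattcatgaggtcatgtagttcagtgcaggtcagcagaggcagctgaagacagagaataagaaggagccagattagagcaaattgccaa
The peaks near Ets1 and Kctd5 had the smallest p among those lower in AhR-KO than in WT with LPS. Each sequence shown held 1 AP-1 match, and in the wider window the Kctd5 peak also held 1 NF-kB match.
Ets1, chr9:32915688-32915887: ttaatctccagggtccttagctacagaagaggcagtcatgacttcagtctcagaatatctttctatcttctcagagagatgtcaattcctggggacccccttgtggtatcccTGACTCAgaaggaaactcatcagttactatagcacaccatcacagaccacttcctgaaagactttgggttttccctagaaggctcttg
Kctd5, chr17:24084741-24084940: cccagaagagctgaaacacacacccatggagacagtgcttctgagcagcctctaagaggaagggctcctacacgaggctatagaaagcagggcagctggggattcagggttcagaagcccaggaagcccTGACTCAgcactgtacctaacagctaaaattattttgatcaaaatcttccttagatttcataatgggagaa
The peaks near Il33 and in Nfkb1 had the smallest p among those higher in AhR-KO, and the promoter peak of Serpinb2 was the most accessible LPS-only peak at a start site.
Il33, chr19:29923017-29923216: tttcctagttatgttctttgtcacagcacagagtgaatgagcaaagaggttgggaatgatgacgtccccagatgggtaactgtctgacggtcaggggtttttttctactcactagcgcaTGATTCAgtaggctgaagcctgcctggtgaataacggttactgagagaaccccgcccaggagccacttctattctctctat
Nfkb1, chr3:135613098-135613297: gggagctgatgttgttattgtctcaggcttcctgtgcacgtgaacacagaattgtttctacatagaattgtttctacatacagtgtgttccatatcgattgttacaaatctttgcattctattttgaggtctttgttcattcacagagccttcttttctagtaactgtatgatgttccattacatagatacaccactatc
Serpinb2, chr1:107511280-107511479: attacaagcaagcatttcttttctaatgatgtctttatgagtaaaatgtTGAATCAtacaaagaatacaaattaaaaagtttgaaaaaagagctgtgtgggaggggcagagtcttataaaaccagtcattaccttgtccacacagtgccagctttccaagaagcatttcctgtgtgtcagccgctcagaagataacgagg
Of these 3, the Il33 and Serpinb2 sequences held 1 AP-1 match each and the Nfkb1 sequence held neither site. A match is a string of letters and not a measured binding event.

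The LPS-only peaks were mostly distal. Their median width was 587 bases, and their centres lay a median of 33.03 kb from the nearest transcription start site (TSS) of a protein-coding gene, against 26.5 kb for all autosomal peaks. Only 74 of them (1.23%) had their centre within 1 kb of a TSS, against 8.09% of all autosomal peaks and 22.7% of the 50055 peaks called in all 24 libraries. Introns held 47.0% and intergenic DNA 49.1% of the LPS-only peaks, against 46.9% and 41.7% of all peaks. The median distance from their centres to the nearest peak called in all 24 libraries was 8.10 kb, against 10.5 kb for all peaks not called in every library. An always-called peak lay within 5 kb of 33.97% of the LPS-only peaks, against 25.4% of all peaks not called in every library and 41.5% of the 848 peaks that met the mirrored rule, called without LPS and lost with it. Each peak was given the name of the protein-coding gene whose TSS was nearest, which marks a neighbour and not a target. The 6017 peaks were assigned to 3773 genes, of which 2565 had 1 LPS-only peak and 135 had at least 5.

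Most of the peaks were called in every LPS library. In all, 3710 of the peaks were called in all 12 LPS libraries, 1240 in 11 and 1067 in 10, and each LPS library had 5400 to 5938 of them in its list. Calls were missing more often in WT than in AhR-KO: among the peaks called in 10 libraries, 1428 of the missing calls were in WT LPS libraries and 706 in AhR-KO LPS libraries. The rule allows at most 2 missing calls, so every LPS-only peak was called in at least 4 of 6 LPS libraries of each genotype. A site called with LPS in 1 genotype alone could not be among them. Just outside the rule were 1038 peaks called in 9 LPS libraries and no unstimulated one, with a median of 1.93 CPM in LPS libraries, and 1618 peaks called in at least 10 LPS libraries and 1 unstimulated one, with a median of 3.36 CPM. The peaks called in exactly 10 libraries, just inside it, had a median of 2.19 CPM.

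Accessibility is given as CPM, the fragments of a peak for each M (mega) fragments that its library had in peaks, after TMM normalization. The values with and without LPS describe how the peaks were chosen and are given with no test. The 6017 peaks took 0.425 to 0.518% of all counts in the WT and 0.467 to 0.546% in the AhR-KO libraries without LPS, and 2.10 to 2.63% and 2.62 to 3.33% with it. Every LPS library was above every unstimulated one in this share, and the WT and AhR-KO LPS libraries overlapped at the edges of their ranges. The median LPS-only peak had 0.624 CPM in WT against 0.658 in AhR-KO before LPS, and 3.02 and 3.72 after it. Uncalled did not mean empty, since the median peak still had 6 to 17 fragments in an unstimulated library, and at most 93 of the 6017 peaks had none. Whether these fragments were above the background of closed chromatin was not tested. In the LPS libraries the median peak had 80 to 117 fragments, and none of the peaks was at 0.

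**Figure D1:**
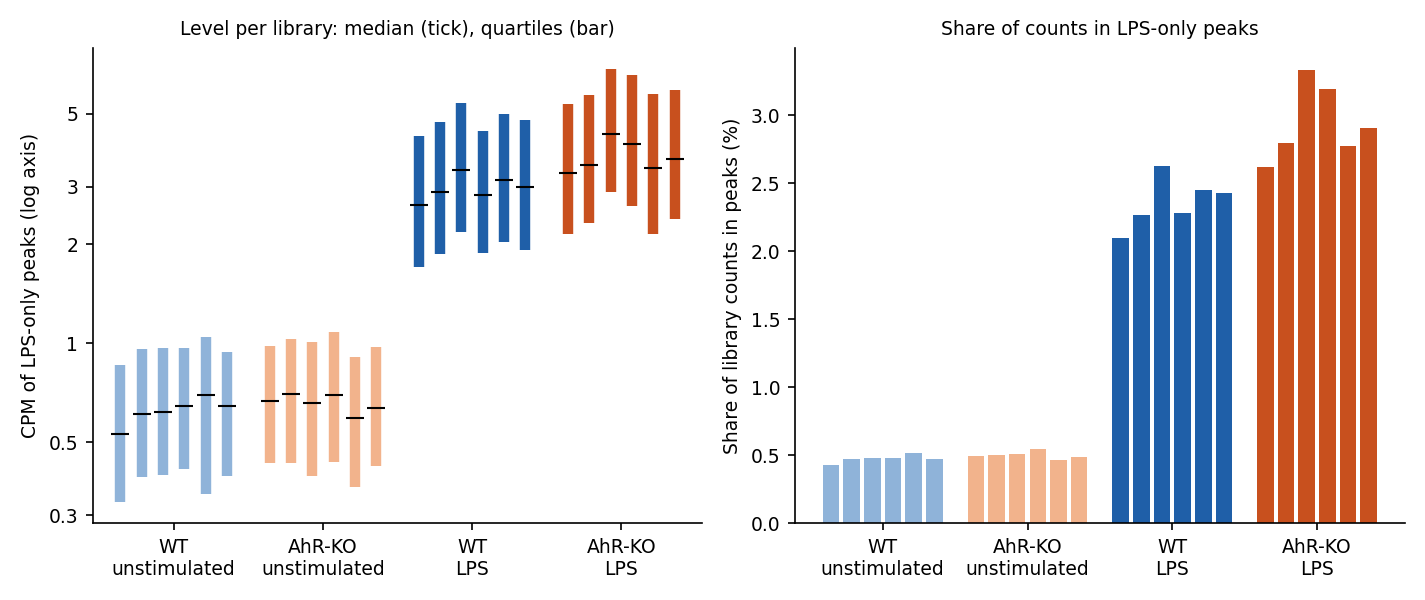
Accessibility of the 6017 LPS-only peaks in each of the 24 libraries: the left panel gives the median (tick) and quartiles (bar) of CPM on a log axis, and the right panel gives the share of all counts that fell in these peaks, in percent. Shares of 0.425 to 0.546% without LPS stand beside 2.10 to 3.33% with it.

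The median log2 fold change with LPS was 2.29 in WT against 2.501 in AhR-KO. Counts rose past the thresholds for a differentially accessible region (edgeR adjusted p up to 0.05, fold of 1.5 or more) at 5927 of the peaks in WT, where 25.4% of all tested peaks did, and at 5960 in AhR-KO, where 27.3% did, and the rule had chosen for this. Both genotypes passed them at 5899 of the peaks and neither at 29, so the rest passed in 1 genotype alone. None of the peaks fell past them, where 21.6% of all tested peaks fell in WT and 21.5% in AhR-KO. All 12 LPS libraries lay above all 12 unstimulated ones at 5408 of the peaks (89.9%), against 12.9% of all tested peaks. The mean of the log2 fold changes in the 2 genotypes was at least 3 at 1533 peaks and at least 4 at 288. For 237 peaks it was below 1, so a change in the lists did not always go with a doubling of the counts.

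Among peaks called in all 12 LPS libraries, the largest rises were at peaks near 0 without LPS. The peak 260 kb from Runx2, which encodes a Runt-domain factor best known from bone, lies at chr17:44475788-44476478. Before LPS its lowest, median and highest CPM were 0.0436, 0.154 and 0.347 in the WT libraries and 0.0424, 0.0818 and 0.162 in the AhR-KO libraries. With LPS they were 4.43, 6.07 and 8.57 in WT against 9.33, 10.9 and 14.3 in AhR-KO. The 2 unstimulated groups overlapped, whereas all AhR-KO LPS libraries were above all WT LPS libraries. In the genotype comparison with LPS, which the rule did not use, the log2 fold change of AhR-KO over WT was 0.83 (SE 0.129, edgeR adjusted p = 2.44e-06).

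The intronic peak of Galnt11, an O-glycosylation enzyme, at chr5:25250002-25250837, went from 0.389 ± 0.191 to 15.9 ± 3.69 CPM (mean ± SD, n = 6) in WT, and in AhR-KO from 0.316 ± 0.0795 to 17.2 ± 1.15. The peak 62.8 kb upstream of Hif1a, the oxygen-sensing factor of the hypoxia response, at chr12:73838029-73839147, went from 0.572 ± 0.196 to 23.5 ± 3.62 CPM in WT, and in AhR-KO from 0.607 ± 0.209 to 27.5 ± 3.13. Neither passed the genotype thresholds with LPS, and the libraries of the 2 genotypes overlapped at both. Of the other 5 peaks with the greatest rise among those called in all 12 LPS libraries, those near Helt (log2 fold change 0.74, SE 0.0984, edgeR adjusted p = 1.48e-07) and in Ms4a6d (0.59, SE 0.106, edgeR adjusted p = 2.02e-05) were higher in AhR-KO LPS than in WT LPS. Those assigned to Pde2a, Htr2a and Slc1a2 did not pass the thresholds, with genotype log2 fold changes of -0.34, 0.30 and 0.40.

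Slc1a2, a glutamate transporter gene, had the most LPS-only peaks of any gene, 14 of its 51 consensus peaks. It was followed by Inhba, which encodes a subunit of activin A, with 13 of 170, and by Pde4d, Slco3a1 and Zeb2 with 12 each. Mbl2, a lectin gene, had 9 of only 27. These genes were picked by their counts of peaks. Another LPS-only peak lay within 10 kb of 1044 LPS-only peaks (17.4%), and no other set of peaks was measured beside them. The LPS-only share of a chromosome's peaks ran from 2.67% on chromosome 7 to 4.16% on chromosome 16.

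The sequence under the peaks was not part of the rule. Within 300 bases at the peak centre, the AP-1 letters TGANTCA were found in 44.8% of the LPS-only peaks, against 17.9% of all autosomal peaks, 14.9% of the always-called peaks and 5.54% of those lost with LPS. The NF-kB letters were found in 12.3%, against 5.65%, 5.43% and 2.59%. At least 2 AP-1 matches were present in 599 LPS-only peaks (9.96%), against 2.25% of all peaks, and 258 LPS-only peaks held both AP-1 and NF-kB letters. Of the LPS-only peaks, 47.2% held neither. The AP-1 letters joined to those of a MAF site, which also count as AP-1 matches, were found in 3.12% against 1.29%, and the related CRE site TGACGTCA in 0.748% against 0.468%.

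Sites of the lineage factors were not raised in the same way. The PU.1 letters GAGGAAGT were in 2.69% of the LPS-only peaks, against 7.33% of all peaks, 7.50% of the always-called peaks and 15.9% of those lost with LPS. The RUNX letters TGTGGTT were in 9.17% against 10.6%, and in 15.9% of the lost peaks. The C/EBP letters TTGCNNAA were in 16.5% against 15.6%, and in 21.8% of the lost peaks. Letters of the interferon pathway differed less: the ISRE letters were in 5.17% against 4.56%, the GAS letters TTCNNNGAA in 13.7% against 11.01%, and the PU.1-IRF composite in 3.94% against 5.35%. The AhR core GCGTG was in 12.4% against 16.1% of all peaks and 24.2% of the always-called ones. The GC box GGGCGG, a mark of CpG-rich promoters, was in 3.27% against 8.81%, and the CACGTG box of MITF and TFEC in 3.42% against 4.27%. All letters were searched on both strands. The median G and C content of the 300 bases was 45.0% in LPS-only peaks and 46.3% in all peaks, and its part in these shares was not tested.

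**Figure D2:**
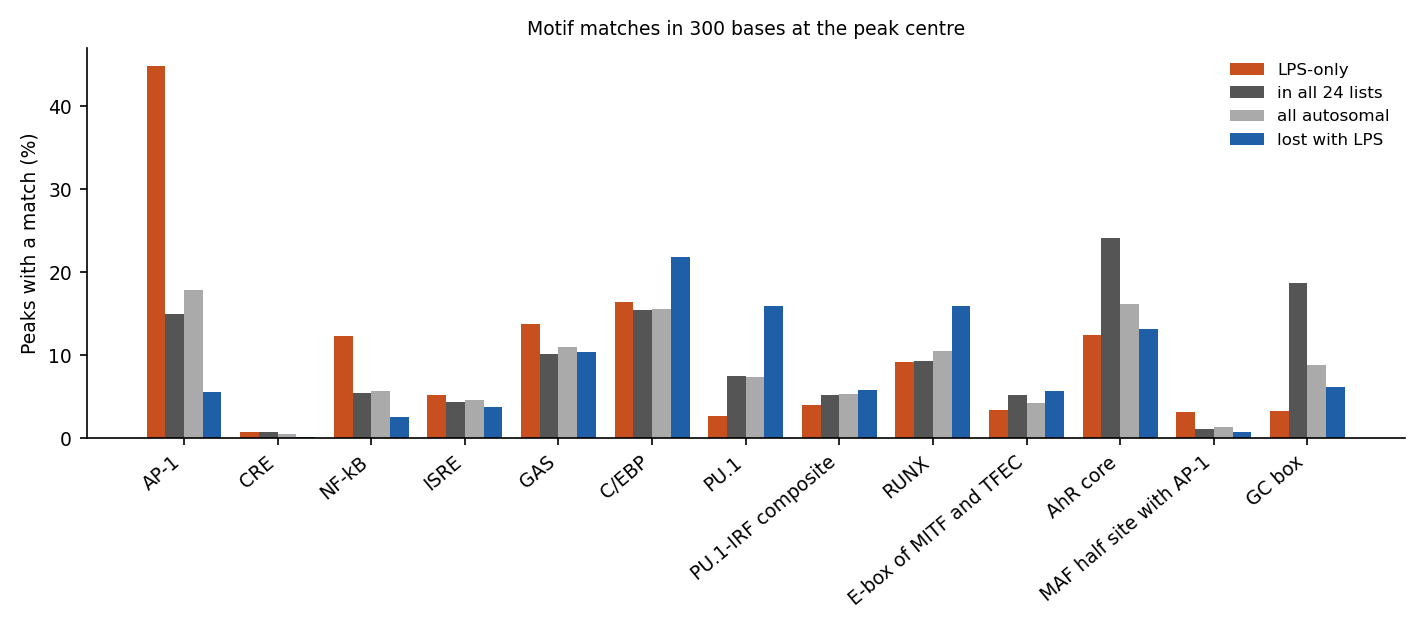
Share of peaks, in percent, with at least 1 match to each of 13 motifs in the 300 bases at the peak centre, for LPS-only peaks, peaks called in all 24 libraries, all autosomal peaks and peaks lost with LPS. The AP-1 bar of the LPS-only peaks reaches 44.8% and their PU.1 bar 2.69%.

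The AP-1 and NF-kB letters were gathered at the peak centre. In the bins of 50 bases on either side of the centre, AP-1 letters were found in 12.2% of the LPS-only peaks per bin, against 1.95% per bin at 400 to 500 bases away, a ratio of 6.26. The same ratio was 2.51 over all autosomal peaks and 1.81 over the always-called peaks, which were wider, with a median of 1057 bases. For the NF-kB letters the ratio was 4.56 in LPS-only peaks and 1.87 in all peaks. Both sites were more frequent at the peaks that rose more. With the peaks ranked by LPS fold change and cut into 4 sets of equal size, the share with AP-1 letters went from 35.1% in the lowest set to 52.1% in the highest, and that with NF-kB letters from 7.57% to 16.95%.

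**Figure D3:**
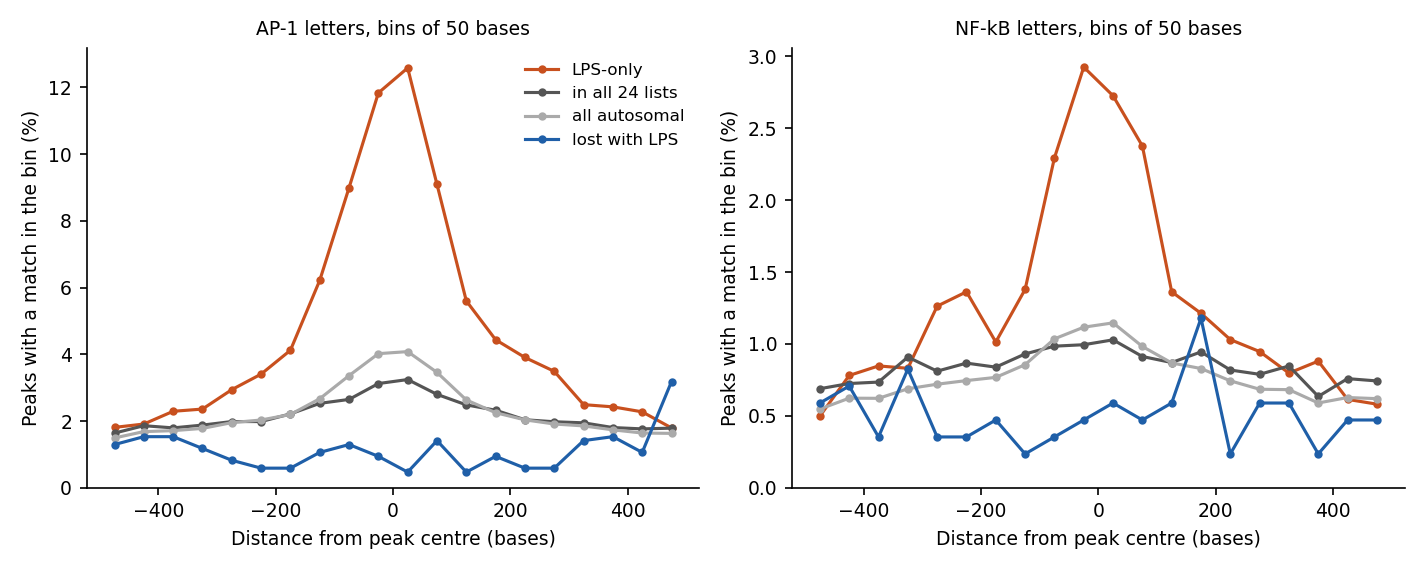
Share of peaks, in percent, with an AP-1 (left) or NF-kB (right) match in each bin of 50 bases, by distance in bases from the peak centre, for LPS-only peaks and the comparison sets. The LPS-only line peaks at the centre, at a mean of 12.2% for AP-1 and 2.83% for NF-kB in the bins next to it.

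The study asked how loss of AhR altered accessibility, and the genotype comparison within the LPS libraries was tested in all 174193 peaks that passed the filter on low counts, which included all 6017 LPS-only peaks. With LPS, LPS-only peaks were more often higher than lower in AhR-KO. In AhR-KO, 1834 were higher, where 13.4% of all tested peaks were higher, and 376 were lower, where 13.1% were lower (edgeR, thresholds as above). These were 30.5% and 6.25% of the LPS-only peaks, and 3807 were called in neither direction. The median log2 fold change was 0.33, against 0.021 over all tested peaks, and it was above 0 at 4424 of the peaks (73.5%) against 52.1%. All 6 AhR-KO LPS libraries lay above all 6 WT LPS libraries at 1442 peaks (24.0%, against 10.6% of all tested peaks) and below them at 125 (2.08%, against 8.96%).

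The shift was not particular to peaks absent before LPS. Among 29645 other autosomal peaks whose counts rose with LPS in both genotypes, 29.4% were higher and 10.8% lower in AhR-KO LPS, with a median log2 fold change of 0.28. Always-called peaks were higher at 4.59% and lower at 5.63%, and peaks lost with LPS at 6.96% and 7.43%. Library totals were 25.1 to 34.6 M (mega) counts in WT LPS against 22.4 to 28.5 M in AhR-KO LPS, with overlap. The median LPS-only peak held 80 to 117 fragments in WT LPS libraries and 84 to 102 in AhR-KO LPS libraries. The part of depth in the choice of peaks was not tested. Among the 3710 peaks called in all 12 LPS libraries, 1095 were higher (29.5%) and 159 lower (4.29%). Within 20 Mb of Ahr, where DNA of the strain in which the allele was made may remain, lay 76 LPS-only peaks, of which 18 were higher and 5 lower.

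**Figure D4:**
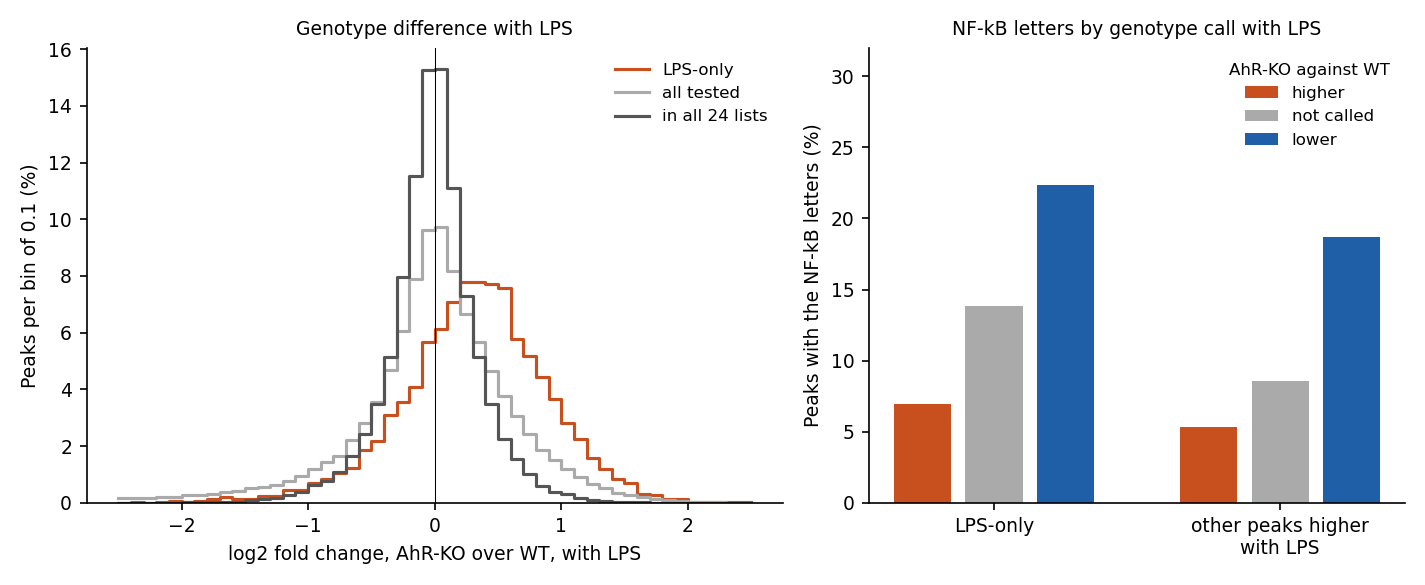
Left, distribution of the log2 fold change of AhR-KO over WT in LPS libraries, as the percentage of peaks in bins of 0.1, for LPS-only peaks, all tested peaks and peaks called in all 24 libraries. Right, share of peaks with the NF-kB letters, in percent, among peaks higher, not called or lower in AhR-KO with LPS, for LPS-only peaks (6.98%, 13.8% and 22.3%) and for other peaks that rose with LPS.

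The genotype calls went along with the letters under the peaks. NF-kB letters were found in 128 of the 1834 LPS-only peaks that were higher in AhR-KO (6.98%), in 13.8% of those not called and in 84 of the 376 that were lower (22.3%). Among the other peaks that rose with LPS in both genotypes the shares were 5.33%, 8.56% and 18.7%. AP-1 letters were in 46.1% of the higher, 44.6% of the uncalled and 41.0% of the lower LPS-only peaks, and in 37.6%, 38.5% and 28.7% of the other peaks that rose with LPS. Over all tested peaks on chromosomes 1 to 19 they were in 27.5% of the higher and 14.997% of the lower peaks. Seen from the letters, LPS-only peaks with AP-1 but no NF-kB match (2439 peaks) were higher in AhR-KO at 32.8% and lower at 4.80%, and those with neither (2840 peaks) at 31.9% and 6.16%. With NF-kB alone (480 peaks) the shares were 17.1% and 9.79%, and with both (258 peaks) 17.8% and 14.3%. The AhR core was found in 11.1% of the higher and 16.5% of the lower LPS-only peaks, but in 11.8% and 12.1% of the other peaks that rose. The GAS letters were in 12.6% and 19.9% of the LPS-only peaks, and in 11.9% and 18.9% of the others. The median G and C content was 44.0% in the higher and 46.3% in the lower peaks, and its part in these shares was not tested.

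The LPS-only peak with the smallest p among those lower in AhR-KO lay 219 kb from Ets1, which encodes an ETS-family factor of lymphoid cells, at chr9:32915426-32916148. Its lowest, median and highest CPM with LPS were 5.93, 8.65 and 10.7 in WT against 1.26, 1.80 and 2.66 in AhR-KO, and without LPS 0.530, 1.02 and 1.15 in WT against 0.339, 0.502 and 0.703 in AhR-KO. The LPS libraries of the 2 genotypes did not overlap. The log2 fold change of AhR-KO over WT was -2.18 with LPS (SE 0.161, edgeR adjusted p = 9.56e-13) and -0.86 without it (SE 0.272, edgeR adjusted p = 0.0106).

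The peak assigned to Kctd5, an adaptor of a ubiquitin ligase, lay in an intron of Pdpk1 at chr17:24084474-24085206. It had 4.69, 5.48 and 5.83 CPM as its lowest, median and highest values in WT LPS, against 1.49, 1.99 and 2.36 in AhR-KO LPS, a log2 fold change of -1.46 (SE 0.124, edgeR adjusted p = 1.73e-11). The groups were again apart, and the AhR-KO peak was missing from 2 of 6 LPS lists. The next lower peaks were assigned to 1500009L16Rik (-1.84), Blm (-1.66, in an intron of Crtc3) and Ip6k3 (-1.83), all with no overlap between WT LPS and AhR-KO LPS libraries.

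Among the peaks higher in AhR-KO, that with the smallest p lay 2.00 kb upstream of Il33, which encodes an alarmin of the IL-1 family, at chr19:29922822-29923410. With LPS its lowest, median and highest CPM were 1.08, 1.39 and 1.60 in WT against 5.92, 6.95 and 8.17 in AhR-KO. Without LPS they were 0, 0.167 and 0.248 in WT against 0.228, 0.524 and 0.747 in AhR-KO. The groups were well apart with LPS and overlapped slightly without it. The log2 fold change was 2.35 with LPS (SE 0.151, edgeR adjusted p = 3.21e-14) and 1.62 without it (SE 0.347, edgeR adjusted p = 0.000252).

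The peak in an intron of Nfkb1, whose product is the NF-kB subunit p50 and its precursor p105, at chr3:135612871-135613523, had 4.08, 4.83 and 5.74 CPM as its lowest, median and highest values in WT LPS, against 10.8, 13.4 and 13.6 in AhR-KO LPS. The log2 fold change was 1.43 (SE 0.0951, edgeR adjusted p = 6.91e-14), and the groups did not overlap. Dagla, whose enzyme makes the endocannabinoid 2-AG, had a peak that was higher in AhR-KO both with LPS (log2 fold change 2.12) and without it (1.67). In an intron of Adck1, a gene for a mitochondrial protein, the peak was higher with LPS (1.86) while its value without LPS was -0.07. The peak assigned to Klf4, a zinc-finger factor of monocyte differentiation, lay 532 kb from its TSS and was higher by 1.96 with LPS and 1.12 without it.

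**Figure D5:**
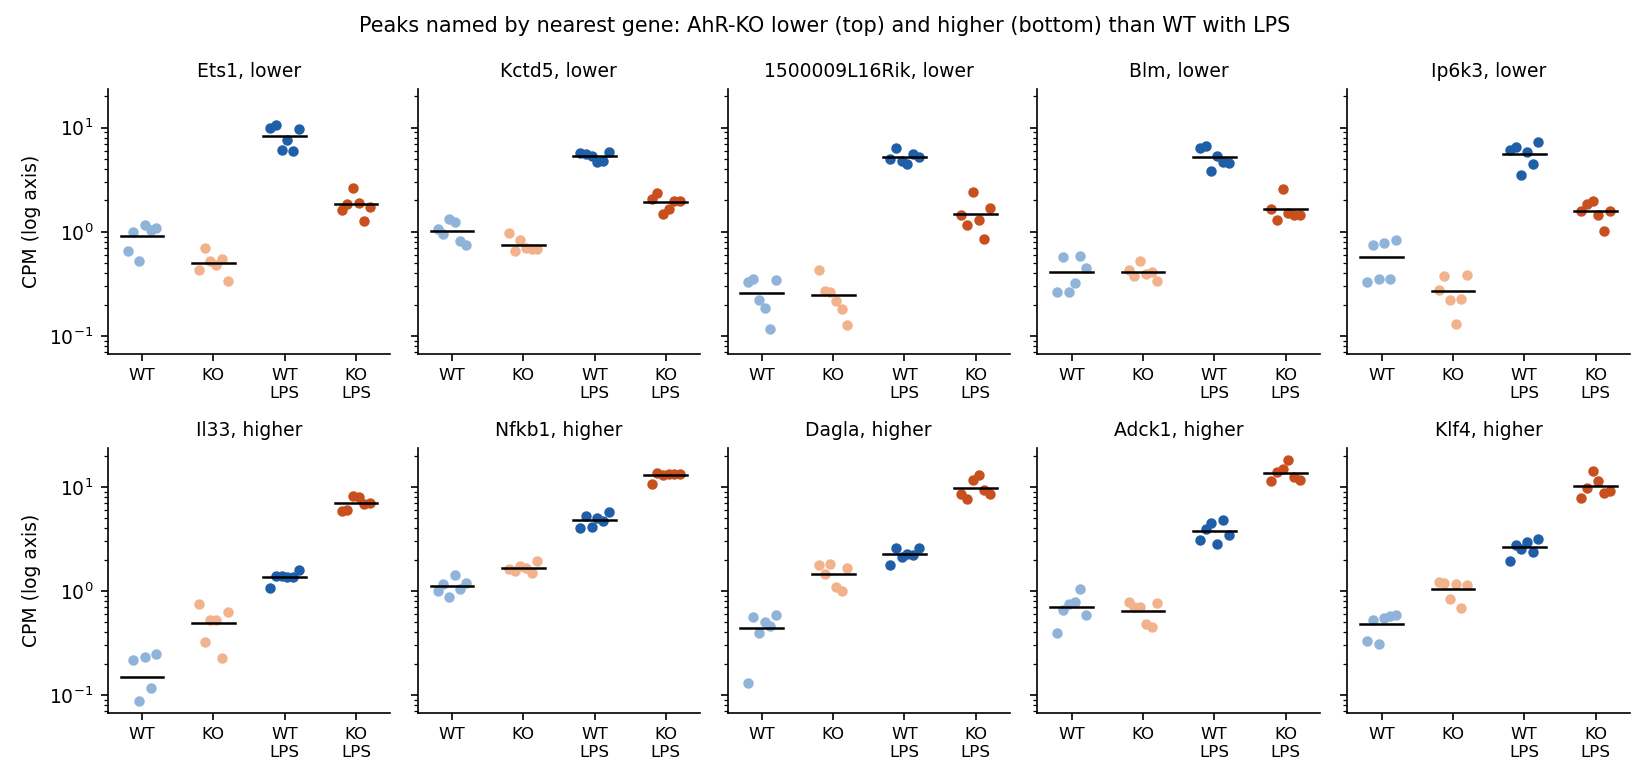
CPM on a log axis in each library (points, with the group mean as a line) for the 5 LPS-only peaks with the smallest p in each direction of the genotype comparison with LPS, named by the gene they were assigned to, in WT and AhR-KO (KO) without and with LPS. The 6 AhR-KO LPS points lie below the 6 WT LPS points in the top row and above them in the bottom row, and 1 WT unstimulated library with no count at the Il33 peak cannot be drawn on this axis.

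Without LPS, 562 LPS-only peaks were higher in AhR-KO, where 9.95% of all tested peaks were higher, and 236 were lower, where 12.6% were. These were 9.34% and 3.92% of the LPS-only peaks, with a median log2 fold change of 0.081. Counts at these peaks are low without LPS by the rule, which leaves the test less to work with. Of the 1834 peaks higher with LPS, 355 were also higher without it and 14 were lower. Of the 376 peaks lower with LPS, 61 were also lower without it and 2 were higher.

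The calls with the smallest p without LPS included those at Ip6k2, Adprm and Ndst1 (higher in AhR-KO) and at Cog6 and Socs1 (lower). At the promoter of Ip6k2, an inositol phosphate kinase gene, CPM was 0.324 ± 0.0628 in WT against 1.42 ± 0.415 in AhR-KO without LPS (log2 fold change 2.11, SE 0.216, edgeR adjusted p = 6.78e-10) and 1.96 ± 0.135 and 4.02 ± 0.296 with it. In an intron of Adprm the peak had 0.910 ± 0.231 and 2.93 ± 0.630 CPM without LPS (1.71, SE 0.155, edgeR adjusted p = 4.65e-11). The peak 226 kb from Cog6 had 0.887 ± 0.203 CPM in WT against 0.183 ± 0.0535 in AhR-KO without LPS (-2.22, SE 0.336, edgeR adjusted p = 1.46e-06), and 2.24 ± 0.506 and 2.11 ± 0.772 with it. The genotypes thus differed before LPS at Cog6, and the values with LPS overlapped.

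The interaction, the genotype effect with LPS minus that without it, asks whether the gain with LPS differed between the genotypes. It was higher at 668 LPS-only peaks, where 5.83% of all tested peaks were, and lower at 119, where 4.58% were. The median was 0.22 on the log2 scale, against 0.039 over all tested peaks. Of the 1834 peaks higher in AhR-KO with LPS, 490 were also higher in the interaction, and of the 376 lower peaks, 64 were also lower in it.

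The peak 9.04 kb from the TSS of Ptgs2, which encodes cyclooxygenase-2, the inducible enzyme of prostaglandin synthesis, was among the 3 with the smallest interaction p. It lies at chr1:150108224-150109919. Without LPS its lowest, median and highest CPM were 1.12, 1.33 and 1.74 in WT against 0.747, 0.917 and 1.51 in AhR-KO. With LPS they were 3.78, 4.55 and 5.85 in WT against 9.51, 16.7 and 23.3 in AhR-KO. The unstimulated groups overlapped and the LPS groups did not. The genotype log2 fold change was 1.86 with LPS (SE 0.144, edgeR adjusted p = 1.20e-11), -0.48 without it (SE 0.246, edgeR adjusted p = 0.12), and the interaction 2.35 (SE 0.286, edgeR adjusted p = 1.51e-06). The peak assigned to Fam174a (interaction 1.86) also had a higher gain in AhR-KO. Gains were lower in AhR-KO at the peaks assigned to Spats1 (-1.57), Inpp4b, a phosphoinositide phosphatase gene (-1.50), and Adprm (-1.04).

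The genes beside the peaks were read in 12 lists of pathways that a macrophage uses after LPS, and in 1 list of ribosomal protein genes as a control. Of all autosomal peaks, 3.36% were LPS-only, and 341 LPS-only peaks were assigned to a gene of the 12 lists. The share was 7.77% of the peaks of cytokine genes (31 of 399), 7.62% of those of interferon response genes (41 of 538) and 6.14% of those of matrix, coagulation and adhesion genes (29 of 472). It was 6.09% for feedback inhibitors (41 of 673), 5.84% for nitric oxide, arginine and redox genes (25 of 428), 5.204% for chemokines and their receptors (14 of 269), 5.05% for macrophage lineage factors (69 of 1366), 4.47% for AhR targets (17 of 380) and 4.35% for eicosanoid genes (30 of 690). It was 3.48% for TLR and NF-kB signalling genes, 3.25% for AP-1, ATF and MAF factors, 3.07% for antigen presentation genes and 2.55% for ribosomal protein genes. The 3.36% of all peaks lay within the Wilson 95% interval, which covers counting error only, of these 4 lists and also of chemokines (3.13 to 8.55%), AhR targets (2.81 to 7.05%) and eicosanoid genes (3.06 to 6.14%). With genes taken within 100 kb in place of the nearest, only interferon genes, at 5.201%, and lineage factors, at 2.89%, left their Wilson interval. Cytokine genes then had 5.96% and ribosomal protein genes 2.07%, and the share of all peaks was not counted this way.

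The genotype counts of the lists are to be read against all LPS-only peaks, of which 30.5% were higher and 6.25% lower in AhR-KO with LPS, and all tested peaks, of which 13.4% and 13.1% were. The median log2 fold change of the 12 lists ran from 0.16 (chemokines) to 0.53 (interferon response), against 0.33 for all LPS-only peaks and 0.021 for all tested peaks. Most lists hold few peaks, and no list was tested against the others.

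Of the 31 peaks of cytokine genes, 12 were higher (38.7%, against 30.5% of all LPS-only peaks) and 3 lower (9.68%, against 6.25%) in AhR-KO with LPS. Il6, the gene of the fever-inducing cytokine interleukin-6, had 6 of them, and 5 were higher. The most accessible, at chr5:30020418-30024145 and 8.96 kb from the TSS, had lowest, median and highest CPM of 10.5, 12.6 and 15.6 in WT LPS, against 21.2, 27.1 and 33.8 in AhR-KO LPS. It had 0.820 ± 0.0806 and 0.721 ± 0.206 CPM without LPS. The genotypes were apart with LPS and overlapped without it, with a log2 fold change of 1.10 (SE 0.104, edgeR adjusted p = 2.43e-10) and an interaction of 1.28 (SE 0.272, edgeR adjusted p = 0.00142). Il10, the gene of the main anti-inflammatory cytokine of macrophages, had 5 LPS-only peaks, and none was called in the genotype comparison.

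The peak over Il1b, the gene of the pyrogen interleukin-1β, was the widest LPS-only peak, with 5983 bases at chr2:129363135-129369117. Its lowest, median and highest CPM were 3.24, 3.74 and 6.40 in WT cells and 5.43, 7.44 and 11.2 in AhR-KO cells before LPS, and 58.9, 65.3 and 89.1 with WT and 70.0, 80.4 and 92.6 with AhR-KO after it. The genotypes overlapped with and without LPS. The log2 fold change was 1.02 without LPS (SE 0.176, edgeR adjusted p = 4.64e-05) and 0.24 with it (SE 0.118, edgeR adjusted p = 0.0958), and the interaction was -0.78 (SE 0.213, edgeR adjusted p = 0.0144), a lower gain in AhR-KO. Peaks lower in AhR-KO with LPS included 1 peak of each gene for interleukin-12, chosen here after their values were seen. Il12a had 2 LPS-only peaks, of which 1 was not called. The peak 6.77 kb upstream of Il12a had 3.44 ± 0.831 CPM in WT LPS, against 1.62 ± 0.269 in AhR-KO LPS, a log2 fold change of -1.08 (SE 0.153, edgeR adjusted p = 4.19e-07). The peak 51.7 kb upstream of Il12b had 7.96 ± 2.86 and 4.46 ± 0.926, a log2 fold change of -0.83 (SE 0.173, edgeR adjusted p = 0.000221).

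Of the 14 peaks of chemokine genes, 4 were higher (28.6%, near the 30.5% of all LPS-only peaks) and none was lower by edgeR, where 6.25% of all LPS-only peaks were. The most accessible were those near Cxcl5, a neutrophil attractant, with 12.8 ± 1.05 CPM in WT LPS, against 13.8 ± 2.44 in AhR-KO LPS, and near Ccl22, which draws T cells that carry CCR4, with 13.4 ± 5.70 and 10.7 ± 5.29. Neither passed the genotype thresholds. The promoter peak of Ccl5, also known as RANTES, at chr11:83530334-83530833, is named here after its values were seen. It had lowest, median and highest CPM of 3.33, 6.30 and 8.70 in WT LPS, against 11.6, 13.3 and 15.2 in AhR-KO LPS, with no overlap and a log2 fold change of 1.05 (SE 0.153, edgeR adjusted p = 1.67e-06).

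Of the 25 peaks of TLR and NF-kB signalling genes, 7 were higher (28%, near the 30.5% of all LPS-only peaks) and 3 lower (12%, against 6.25%) in AhR-KO with LPS. Nfkb1 had 6 LPS-only peaks, and 4 of them were higher. The peak assigned to Irak3, which encodes a brake on TLR signalling, lay in an intron of Tmbim4 and had 9.85 ± 2.97 CPM in WT LPS, against 16.5 ± 2.58 in AhR-KO LPS (log2 fold change 0.74, SE 0.132, edgeR adjusted p = 2.76e-05). The intronic peak of Traf1, a signalling adaptor of TNF receptors, had 19.5 ± 3.48 and 17.1 ± 1.29 CPM and was not called. Of the 41 peaks of feedback inhibitors, 9 were higher (21.95%) and 1 was lower (2.44%), against 30.5% and 6.25% of all LPS-only peaks. Tnfaip3, whose product A20 removes ubiquitin chains from the NF-kB pathway, had 7 peaks, of which 3 were higher. The peak 4.0 kb from Socs1, an inhibitor of cytokine receptors, had 6.33 ± 1.25 CPM in WT against 3.32 ± 0.640 in AhR-KO without LPS (log2 fold change -0.94, SE 0.137, edgeR adjusted p = 1.19e-06), and 25.8 ± 2.89 and 24.7 ± 3.52 with it. Its genotypes differed before LPS and overlapped after it. The intronic peak of Tnip3, a partner of A20, had 16.4 ± 3.83 and 23.5 ± 2.16 CPM with LPS and a log2 fold change of 0.51, short of the 1.5-fold threshold.

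Of the 41 peaks of interferon response genes, 15 were higher (36.6%) and 2 lower (4.88%), against 30.5% and 6.25% of all LPS-only peaks. The peak near Ifit1, an antiviral effector gene, at chr19:34650185-34654280, had lowest, median and highest CPM of 13.3, 18.1 and 22.6 in WT LPS, against 22.9, 40.6 and 46.5 in AhR-KO LPS. The groups did not overlap, and the log2 fold change was 1.11 (SE 0.135, edgeR adjusted p = 2.19e-07), with an interaction of 1.48 (SE 0.282, edgeR adjusted p = 0.000836). The 3 LPS-only peaks of Gbp7, a guanylate-binding protein gene, were all higher.

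Among transcription factor genes, 30 of the 69 peaks of macrophage lineage factors were higher in AhR-KO with LPS (43.5%, against 30.5% of all LPS-only peaks) and none was lower by edgeR, where 6.25% of all LPS-only peaks were. Zeb2, a repressor that shapes myeloid cells, had 12 peaks with 5 higher, Runx1 had 10 with 6 higher, Klf6 and Nr4a3 had 8 with 4 higher each, and Id2 had 8 with 1 higher. The most accessible of the list were not called: the peak near Bhlhe40 had 18.9 ± 2.36 and 19.2 ± 2.36 CPM in WT LPS and AhR-KO LPS, and the intronic peak of Zeb2 had 10.0 ± 1.21 and 11.8 ± 1.32. Of the 15 peaks of AP-1, ATF and MAF factor genes, 4 were higher (26.7%, against 30.5%) and none was lower by edgeR. The peak 286 kb from Maf, a large MAF factor gene, was lower in AhR-KO without LPS (log2 fold change -0.65, SE 0.149, edgeR adjusted p = 0.000576), while its value with LPS was 0.37. The peak near Fosl2, a FOS-family gene, had 5.57 ± 0.700 and 6.85 ± 0.847 CPM with LPS and was not called.

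Of the 30 peaks of eicosanoid genes, the class of lipid mediators the study was built around, 12 were higher (40%, against 30.5% of all LPS-only peaks) and 1 was lower (3.33%, against 6.25%) in AhR-KO with LPS. All 3 LPS-only peaks of Ptgs2 were higher, with log2 fold changes of 0.71 to 1.86. Pla2g4a, whose enzyme frees arachidonic acid from membranes, had 5 peaks with 1 higher, and Ptger4, a receptor gene for prostaglandin E2, had 5 with 2 higher. Ptger2, the gene of another such receptor, had 4 peaks with 1 lower. Ptgis, the prostacyclin synthase gene, which was chosen after its values were seen, had 2 peaks, and both were higher, by log2 fold changes of 1.62 (SE 0.190) and 1.298 (SE 0.138). Abcc4, a transporter gene for export of prostaglandins, had an intronic peak with 10.2 ± 1.18 CPM in WT LPS, against 8.67 ± 1.16 in AhR-KO LPS and was not called.

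Of the 17 peaks of AhR pathway and target genes, 3 were higher (17.6%) and 2 lower (11.8%), against 30.5% and 6.25% of all LPS-only peaks. Serpinb2, a plasminogen activator inhibitor gene known to respond to AhR ligands, had 2 LPS-only peaks, of which 1 was not called. The other lay at the promoter, at chr1:107511066-107511692. Its lowest, median and highest CPM were 12.5, 14.2 and 19.5 in WT LPS, against 20.8, 24.0 and 25.4 in AhR-KO LPS, with no overlap, a log2 fold change of 0.66 (SE 0.0954, edgeR adjusted p = 5.38e-07) and an interaction of 0.94 (SE 0.192, edgeR adjusted p = 0.00091). Cyp1b1, the gene of a classic AhR-induced enzyme and named here after its values were seen, had 2 LPS-only peaks. The one 31.2 kb away had 3.82 ± 0.455 CPM in WT LPS, against 2.32 ± 1.17 in AhR-KO LPS, a log2 fold change of -0.73 (SE 0.203, edgeR adjusted p = 0.00361), and the other was not called.

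Of the 25 peaks of nitric oxide, arginine and redox genes, 7 were higher (28%, near the 30.5% of all LPS-only peaks) and none was lower by edgeR. Nos2, which encodes inducible nitric oxide synthase, had 3 peaks with 2 higher. The most accessible, 44.4 kb upstream at chr11:78875991-78876708, had lowest, median and highest CPM of 6.02, 7.60 and 8.05 in WT LPS, against 12.7, 15.3 and 18.1 in AhR-KO LPS. The groups did not overlap, and the log2 fold change was 1.06 (SE 0.106, edgeR adjusted p = 5.49e-10) with an interaction of 1.09 (SE 0.246, edgeR adjusted p = 0.00229). Slc7a11, the cystine importer gene, had 7 peaks with 1 higher, and its most accessible one had 12.4 ± 2.73 and 10.99 ± 1.83 CPM.

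Of the 29 peaks of matrix, coagulation and adhesion genes, 9 were higher (31.03%) and 1 was lower (3.45%), near the 30.5% and 6.25% of all LPS-only peaks. Thbs1, a matrix glycoprotein gene, had 7 peaks with 4 higher. The intronic peak of Cd44, the hyaluronan receptor gene, had 20.9 ± 0.771 CPM in WT LPS, against 28.6 ± 1.52 in AhR-KO LPS, with no overlap but a log2 fold change of 0.46, below the fold threshold. Of the 8 peaks of antigen presentation and costimulation genes, 3 were higher (37.5%, against 30.5%). The peak 400 kb from Cd83, a marker of activated antigen-presenting cells, had 7.05 ± 1.54 and 11.4 ± 1.39 CPM (log2 fold change 0.69, SE 0.120, edgeR adjusted p = 1.22e-05). The peak near Tnfsf9, a costimulatory ligand gene, had 5.58 ± 0.599 and 7.65 ± 0.478 CPM and a log2 fold change of 0.45. Of the 6 peaks of the ribosomal control list, 1 was higher. It was assigned to Rps23 but lay in an intron of Atg10, while the peak assigned to Rps20 lay in an intron of Lyn and was not called.

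The 74 promoter peaks were the exception to the distal pattern, and in AhR-KO LPS 24 of them were higher (32.4%, near the 30.5% of all LPS-only peaks) and 8 lower (10.8%, against 6.25%). The 6 most accessible, chosen after their values were seen, were those of Serpinb2, Sdcbp2, Tnfaip3, Il1rn, Ccl5 and Rlbp1. At Sdcbp2, which encodes a syntenin, CPM was 12.4 ± 1.98 in WT LPS, against 25.02 ± 2.45 in AhR-KO LPS (log2 fold change 1.01, SE 0.0956, edgeR adjusted p = 1.67e-10). The promoter peak of Il1rn, the gene of the interleukin-1 receptor antagonist, had 8.28 ± 0.589 and 11.9 ± 1.41 CPM and a log2 fold change of 0.52. The promoter of Tnfaip3 differed without LPS, at 2.88 ± 0.390 CPM in WT against 4.68 ± 0.601 in AhR-KO (log2 fold change 0.69, SE 0.115, edgeR adjusted p = 6.78e-06), and its genotypes overlapped with LPS. The value at Rlbp1 was -0.29 with LPS.

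The cultures were read against markers of the cell types they could hold. A TSS peak called in all 24 libraries was found for 12 of 13 macrophage genes, while Spi1 had no TSS peak. None of the 4 T cell genes had one. Among dendritic cell genes, Flt3 and Zbtb46 had one called in all 24 libraries, Xcr1 had none, and the TSS peak of Ccr7 was called in 12 libraries, with mean CPM of 0.940 (WT) and 0.551 (AhR-KO) without LPS and 7.05 and 2.46 with it. Flt3 had 9.07 (WT) and 4.09 (AhR-KO) without LPS and 11.6 and 4.73 with it, and Zbtb46 had 21.6 and 25.1 without and 17.99 and 15.8 with it. Summed over these 3 genes, CPM was 25.7 to 34.5 in WT and 26.6 to 32.5 in AhR-KO libraries without LPS, and 28.3 to 45.2 and 20.01 to 25.9 with it, so the genotypes did not overlap with LPS. Summed over the 12 macrophage genes it was 281.4 to 299.2 and 322.1 to 385.4 without LPS, and 230.6 to 258.3 and 229.5 to 284.6 with it, lower with LPS in both genotypes. Cebpe, a neutrophil gene, had 21.1 and 17.8 without LPS and 11.2 and 10.2 with it. The part of these shifts in the results was not tested. Of the 4 neutrophil, 4 B cell, 3 fibroblast and 2 epithelial genes, Cebpe, Ebf1, Pdgfra and both Epcam and Cdh1 had a TSS peak called in all 24 libraries. In bulk libraries, fewer cells of a type and less open chromatin per cell cannot be told apart.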

How the data were processed

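ATAC-seq was performed on 24 libraries. Per the study's methods, the authors ran the nf-core atacseq pipeline on mm10. The authors deposited raw fragment counts in consensus peaks (featureCounts 2.0.1 per the file headers) and, for each library, a list of MACS2 broad peaks called on that library alone, with fold enrichment over local signal, a −log10 p-value and a −log10 q-value. Positions are printed as the count table gives them, with starts equal to the zero-based starts of the lists; sequences were read from GRCm38, and genes from the GENCODE basic annotation (21924 protein-coding genes). No replicates were pooled.

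A peak counted as called in a library when a list entry overlapped it by at least 1 base. The peaks and gene lists were chosen with earlier results of these data known, so no pattern among them is independent support. The test was run in edgeR 4.0.16 and R 4.3.3 (filterByExpr by group, TMM, robust quasi-likelihood fit of 4 groups over all 24 libraries). Two-sided p-values were adjusted by the Benjamini-Hochberg method over 174193 peaks, and a differentially accessible region needed a fold of 1.5 or more with adjusted p up to 0.05. SE is the log2 fold change divided by the square root of F. The code was tested on simulated data. Totals in peaks were 8.54 to 34.6 M (mega) per library. Values cover the spread between 6 libraries per group, 1 animal each per the study.

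Named peaks were, among LPS-only peaks, the 8 with the largest mean LPS change called in all 12 LPS lists, the 5 with the smallest p in each direction with LPS, the 3 in each direction without LPS and in the interaction, and the 2 with the highest CPM in each gene list, and other names were chosen after their values were seen. Some peaks that this rule names are not reported here. Sites of 10 letters are given by name. DESeq2 1.42.0, other size factors, filters, thresholds and peak rules and each library left out were tried.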

Additional observations from a re-analysis of the deposited data

Results flagged for a closer look

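In groups of 6 libraries, a sample was noted when its gap to the nearest other exceeded 0.625 of the group's range. This held for 14 of 238 groups tested, and chance alone marks about 1 in 20. With LPS, the Blm peak had 2.57 CPM in AhR-KO replicate 3 (others 1.31 to 1.65), the Nfkb1 peak 10.8 in AhR-KO replicate 1 (13.1 to 13.6), the Rps20 peak 11.5 in WT replicate 3 (7.17 to 8.47), the Ip6k2 peak 1.71 in WT replicate 1 (1.96 to 2.08), the Tnfaip3 promoter 13.9 in WT replicate 3 (15.6 to 16.6) and the Rlbp1 promoter 8.96 in WT replicate 4 (10.5 to 11.2).

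Without LPS, the Il1b peak had 6.40 CPM in WT replicate 5 (others 3.24 to 4.05), the Il6 peak 0.662 in WT replicate 3 (0.814 to 0.874), the Traf1 peak 1.24 in WT replicate 6 (0.397 to 0.528) and the Ptgs2 peak 1.51 in AhR-KO replicate 2 (0.747 to 1.003). The Cxcl5 peak had 0.0990 in WT replicate 6 (0.460 to 0.567) and 0.826 in AhR-KO replicate 4 (0.433 to 0.551). The Fosl2 peak had 0.465 in WT replicate 5 (0.131 to 0.198) and 0.551 in AhR-KO replicate 1 (0.162 to 0.297).

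The genotype effect differed with and without LPS by the interaction test (edgeR) at 668 LPS-only peaks in the higher and 119 in the lower direction. Among named peaks the log2 interaction was 2.35 at Ptgs2, 1.86 at Fam174a, -1.57 at Spats1, -1.50 at Inpp4b and -1.04 at Adprm. The genotype effects without and with LPS were -0.72 and 1.14 at Fam174a, 0.62 and -0.95 at Spats1, and 1.71 and 0.67 at Adprm, so the first 2 changed direction and Adprm did not.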

How the results depend on the processing

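Of 235 alternatives for the main results, 221 stayed within 1.5 times the main count or, for shares of motifs, within counting error. These 235 include the LPS effects, which the rule had chosen for, and the peaks named for the smallest p with LPS. All 446 alternatives for 22 single peaks kept direction and side of the threshold. The 22 peaks were picked for the smallest p, so few changes were possible among them. With a fold threshold of 2, 627 LPS-only peaks were higher and 133 lower in AhR-KO with LPS, 167 and 68 without it, and 389 and 66 in the interaction. With no fold threshold the calls with LPS were 2852 and 607. All tested peaks were not counted at either of these fold settings. The rule gave 3710 peaks when all 12 LPS lists were asked for, of which 1095 (29.5%) were higher and 159 (4.29%) lower in AhR-KO with LPS, and 11872 with at least 6. In 200 bases AP-1 letters were in 36.7% and NF-kB letters in 9.72% of LPS-only peaks, against 13.5% and 4.02% of all autosomal peaks. With 1 library left out, the calls with LPS ran from 1671 to 2126 (higher) and 334 to 462 (lower). Over all tested peaks these calls ran from 21503 to 25547 and from 21900 to 23826. Without LPS the calls at LPS-only peaks ran from 491 to 605 and 206 to 239, and in the interaction from 568 to 845 and 91 to 164. The rule, with the list count lowered to 9 of 11 where an LPS library was left out, gave 6047 to 6491 peaks. The count of peaks lower in the interaction was 178 with a stricter filter on low counts. Other size factors (RLE) gave 1915 higher and 361 lower with LPS, where 24235 and 22136 of all tested peaks were. DESeq2 gave 1914 and 349, where 23753 and 21728 of all tested peaks were. Without LPS, RLE gave 705 higher and 191 lower and DESeq2 gave 718 and 207, against 562 and 236 in the main fit. Higher calls without LPS over all tested peaks were 20676 with RLE and 20308 with DESeq2, against 17332 in the main fit. In the main fit, 23315 of all tested peaks were higher and 22778 lower with LPS. Among peaks called in at least 5 of 6 LPS libraries of each genotype, a rule added after seeing the data, 1482 were higher (28.5%) and 278 lower (5.34%).

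With the replicate number as a replicate block, 1869 LPS-only peaks were higher and 368 lower with LPS, 631 and 249 without LPS, and 764 and 136 in the interaction. In that fit 23682 of all tested peaks were higher and 22750 lower with LPS. Same-numbered libraries of the genotypes correlated at -0.13 to 0.22 with LPS. Same-numbered unstimulated and LPS libraries correlated at 0.037 to 0.29 in WT, where 4 of 6 correlated best with their own number. In AhR-KO they correlated at 0.0038 to 0.17, with 3 of 6. No library set correlated best with its own number throughout, and the main fit did not take the numbers as pairs. Whether unstimulated and LPS libraries of a genotype were paired was not settled, and the main interaction leaves such pairing out. The comparison without LPS rests on few counts: the rule took peaks uncalled there, and the median LPS-only peak had 6 to 17 fragments.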

Other observations

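The start sites of the genes beside LPS-only peaks were compared with all start sites. Of 3336 TSS peaks that were not LPS-only and belonged to a gene with at least 1 LPS-only peak, 5.73% were higher with LPS in WT and 5.22% lower, against 3.89% and 6.24% of 12993 TSS peaks of all protein-coding genes. In AhR-KO 6.62% were higher and 9.59% lower, against 4.43% and 11.1% of all TSS peaks, so more were higher than lower in WT and fewer in AhR-KO. For 148 such peaks of genes with at least 5 LPS-only peaks 7.43% were higher and 8.78% lower in WT, and for AhR-KO the values were 8.78% and 12.2%. In the genotype comparison with LPS, 1.62% of the 3336 were higher and 5.58% lower in AhR-KO, against 1.39% and 5.46% of all TSS peaks.

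Of the 13 LPS-only peaks of Inhba, 6 were higher in AhR-KO with LPS and none was lower by edgeR, and those named here were chosen after their values were seen. The exonic peak 12.7 kb from its TSS had 9.69 ± 1.44 CPM (SD, n = 6) in WT LPS, against 22.8 ± 2.10 in AhR-KO LPS, a log2 fold change of 1.23 (SE 0.0859, edgeR adjusted p = 1.88e-13), and that 645 kb away had 1.49 ± 0.267 and 5.24 ± 1.16, a log2 fold change of 1.80 (SE 0.149, edgeR adjusted p = 9.36e-12). The peak 62.5 kb upstream had 7.16 ± 1.204 and 5.84 ± 0.668 CPM and was not called.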
